A study of Mus musculus with 10 samples.

Results

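Sprouty, Spred and ETV genes are transcribed when the kinase ERK is active, and most of their products act back on the same pathway. The 9 genes described here are Spry1, Spry2 and Spry4 of the Sprouty family, Spred1, Spred2 and Spred3 of the Spred family, and Etv1, Etv4 and Etv5, the PEA3 group of ETS transcription factors. They were chosen by gene symbol in the authors' normalized table, which lists 21862 genes, and all 9 had enough counts to be tested. Levels come from sequencing of polyA RNA from cultured cortical neurons, prepared from wild-type C57BL/6J embryos at stage E16.5.

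All cultures had received 0.5 µM AraC, which kills dividing cells, and a lentivirus. The Control group had a control lentivirus and no added factor. The BDNF group had the control lentivirus and BDNF, a neurotrophin. The H2BE group had a lentivirus that expresses the histone H2B variant H2BE from a constitutive promoter, and the H2BE+BDNF group had that virus and BDNF. RNA was taken 24 h after BDNF. The labels do not say whether replicates came from separate dissections, whether embryos were pooled or what share of cells was infected, so p-values measure the spread between these samples, which may be technical.

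The 10 libraries held 5058074 to 14142545 counts. Control replicate 3 and BDNF replicate 3 exceeded replicate 1 of their group at 0 of 48526 genes, with 73.7% and 61.9% of its total. Each thus looks like a subset of replicate 1 and was left out of tests, which leaves 2 samples in every group. For levels its CPM was averaged with that of replicate 1 as 1 sample. Such levels differ somewhat from the library tested, as for Spry1 in BDNF with 9.32 CPM against 8.96 CPM in replicate 1. H2bc21, the gene for H2BE, was at 3.89 to 5.33 CPM in the 4 samples with control virus and at 32.1 to 42.7 CPM in the 4 with H2BE virus. Neuron markers summed to 6350 to 7190 CPM over the 8 samples, and all 10 of them were detected. CPM are counts relative to the library total, which was scaled for library composition by the TMM method of edgeR.

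BDNF binds the receptor TrkB, which through Ras activates the kinases Raf, MEK and ERK in turn. Sprouty proteins bind adaptors and other signalling proteins at the membrane and restrain the path from receptor to Ras and Raf, while Spred proteins bring the Ras-inactivating protein neurofibromin to the membrane. ETV1, ETV4 and ETV5 are activated by ERK and carry its signal to other genes. In the developing cortex, Etv1 is also a marker of layer 5 neurons.

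BDNF raised 7 of the 9 genes under the control virus, with Spry4 up 3.36-fold, Spred3 2.56-fold, Etv5 2.50-fold, Etv4 2.38-fold, Spry2 2.30-fold, Spred1 1.86-fold and Spred2 1.51-fold. Spry1 (1.44-fold, 95% interval 1.08 to 1.91) and Etv1 (0.948-fold, 0.735 to 1.22) did not pass the test, and 0 of 9 fell. Under the H2BE virus BDNF raised 6 of 9, the same genes without Etv4, and 0 fell. The H2BE virus against the control virus gave 0 calls among the 9, with or without BDNF. Among all genes it gave calls for 2.13% without BDNF and 0.0223% with BDNF. The calls are from edgeR's quasi-likelihood F test with Benjamini-Hochberg adjustment over 13452 genes, at an adjusted p under 0.05. At this threshold 16.8% of all genes rose and 14.6% fell with BDNF under the control virus, and 13.4% rose and 12.3% fell under the H2BE virus. None of the 9 fell at an unadjusted p under 0.05 or with DESeq2 in either comparison, and DESeq2 called 7 and 6 of them.

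**Figure D1:**
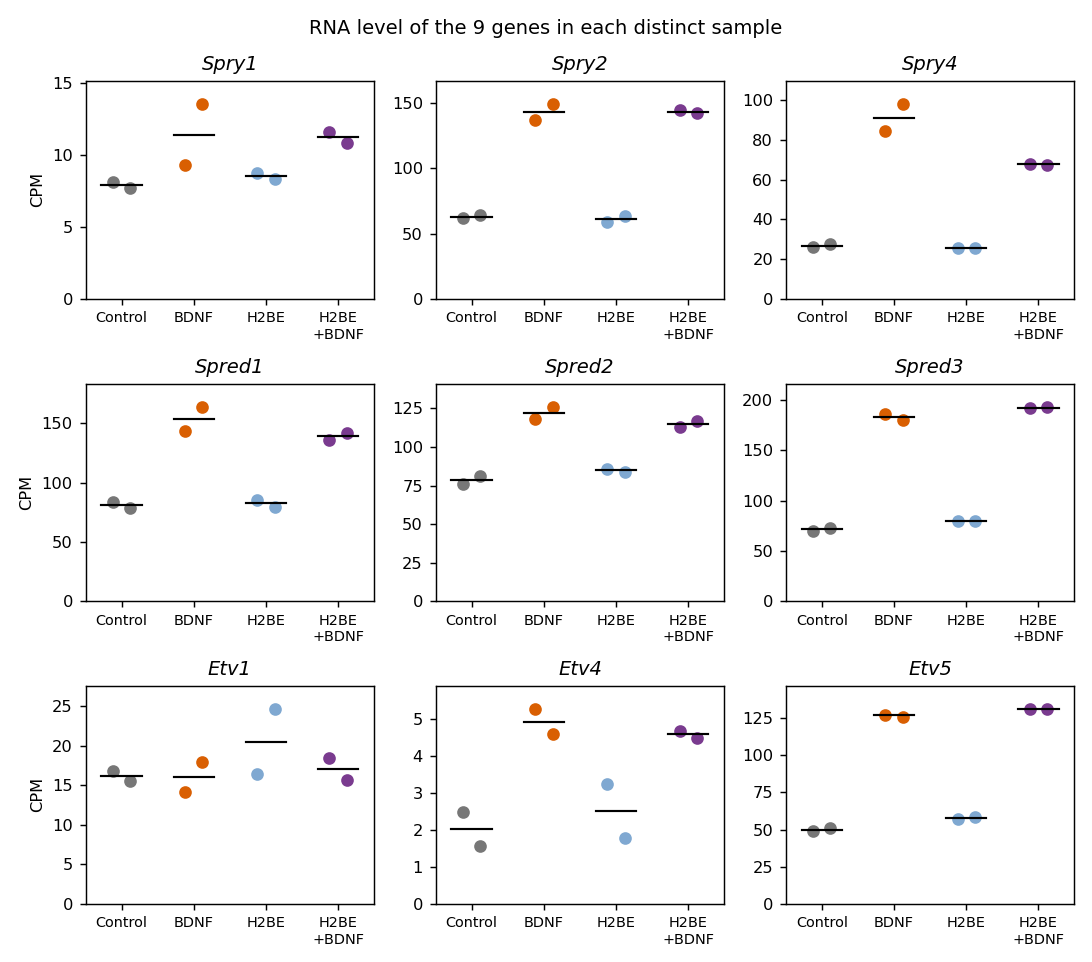
RNA level of each gene in CPM (vertical axes, each from 0) in the 4 groups; points are the 2 distinct samples of a group and black lines their means. In every gene but Etv1 both samples with BDNF lie above both without it under either virus, in Spry4 at 84.2 and 97.8 CPM against 25.9 and 27.7 CPM under the control virus.

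Of the Sprouty genes, Spry2 (ENSMUSG00000022114) lies on the minus strand of chromosome 14 at 105891947-105896819 in GRCm38 (mm10). Its product binds the ubiquitin ligase CBL and the adaptor GRB2. Spry2 was at 61.9 and 64.2 CPM in the Control samples, 137 and 149 CPM with BDNF, 58.9 and 63.8 CPM with H2BE, and 145 and 142 CPM with H2BE and BDNF. The BDNF samples lay above all samples without BDNF, and the viruses overlapped at both settings. The log2 fold change with BDNF was 1.2 ± 0.069 (SE, adjusted p = 4.19e-09) under the control virus and 1.22 ± 0.075 (adjusted p = 1.39e-08) under the H2BE virus.

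Spry4 (ENSMUSG00000024427), on the minus strand of chromosome 18 at 38586247-38601415, encodes a Sprouty that restrains Ras activation downstream of growth factor receptors. It had the largest fold change of the 9 under either virus. The Control samples held 25.9 and 27.7 CPM and the BDNF samples 84.2 and 97.8 CPM, while the H2BE samples held 25.8 and 25.6 CPM and the H2BE+BDNF samples 67.9 and 67.3 CPM. Without BDNF the 2 H2BE samples lay just below the Control samples, and with BDNF both H2BE samples lay below both control virus samples. The rise was 1.75 ± 0.10 on the log2 scale (adjusted p = 2.26e-09) under the control virus and 1.39 ± 0.11 (adjusted p = 1.88e-07) under the H2BE virus. Among genes that rose, ordered from the largest log2 fold change, Spry4 stood at position 146 of 2264 under the control virus and 189 of 1809 under the H2BE virus.

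Spry1 (ENSMUSG00000037211), on the plus strand of chromosome 3 at 37639947-37644598, encodes an inhibitor of receptor signalling best known from kidney development. It was the lowest of the Sprouty genes, also per length of exon, at 8.13 and 7.67 CPM in Control, 9.32 and 13.5 CPM in BDNF, 8.74 and 8.32 CPM in H2BE, and 11.6 and 10.8 CPM in H2BE+BDNF. The samples with BDNF lay above those without it under each virus, but the BDNF samples stood apart from each other. The log2 fold change was 0.52 ± 0.19 (adjusted p = 0.0501) under the control virus and 0.39 ± 0.22 (adjusted p = 0.215) under the H2BE virus. Under the control virus it was 0.78 (adjusted p = 0.00137) without BDNF replicate 1 and 0.20 (adjusted p = 0.48) without BDNF replicate 2, and 7 of 18 alternative settings called it. Exons of Spry1 overlap those of Gm42922 on the other strand, which held 0 to 2 counts per library, and the strand setting of the counting is not given in the sources used here.

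All 3 Spred genes rose with BDNF under both viruses. Spred3 (ENSMUSG00000037239), on the minus strand of chromosome 7 at 29158829-29170411, encodes the Spred protein that lacks the functional KIT-binding region of the other two. Its samples were at 69.7 and 72.9 CPM in Control, 186 and 180 CPM in BDNF, 79.6 and 79.3 CPM in H2BE, and 192 and 193 CPM in H2BE+BDNF. Every sample with BDNF was above every sample without it. The log2 fold change was 1.36 ± 0.062 (adjusted p = 3.17e-10) under the control virus and 1.27 ± 0.065 (adjusted p = 1.97e-09) under the H2BE virus. Exons of Spred3 overlap the protein-coding gene Ggn on the other strand, which held 6 to 34 counts per library against 400 to 2196 for Spred3 in the same libraries.

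Spred1 (ENSMUSG00000027351), on the plus strand of chromosome 2 at 117121374-117182279, encodes the Spred best known for binding neurofibromin and for the RASopathy called Legius syndrome. It was at 83.7 and 78.3 CPM in Control, 144 and 164 CPM in BDNF, 85.3 and 79.7 CPM in H2BE, and 136 and 142 CPM in H2BE+BDNF. The groups with and without BDNF did not overlap. The log2 fold change was 0.90 ± 0.074 (adjusted p = 2.01e-07) under the control virus and 0.75 ± 0.080 (adjusted p = 5.07e-06) under the H2BE virus.

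Spred2 (ENSMUSG00000045671), on the plus strand of chromosome 11 at 19924375-20024026, encodes another inhibitor of the step from Ras to Raf. Its samples were at 76.3 and 81.1 CPM in Control, 118 and 126 CPM in BDNF, 85.7 and 83.8 CPM in H2BE, and 113 and 117 CPM in H2BE+BDNF. Again no sample with BDNF fell into the range of those without it. Spred2 had the smallest log2 fold change among the genes that passed the test, 0.60 ± 0.067 (adjusted p = 5.7e-06) under the control virus and 0.44 ± 0.072 (adjusted p = 0.000318) under the H2BE virus.

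The 3 ETV genes differed from one another. Etv5 (ENSMUSG00000013089), on the minus strand of chromosome 16 at 22381309-22439719, was at 49.1 and 50.7 CPM in Control, 127 and 126 CPM in BDNF, 57.1 and 58.1 CPM in H2BE, and 131 and 131 CPM in H2BE+BDNF. The samples with and without BDNF were far apart and replicates were close. Etv5 rose by 1.32 ± 0.067 on the log2 scale (adjusted p = 1.01e-09) under the control virus and by 1.18 ± 0.071 (adjusted p = 1.13e-08) under the H2BE virus.

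Etv4 (ENSMUSG00000017724), on the minus strand of chromosome 11 at 101769742-101785371, was the lowest of the 9 in CPM, with 9 counts in the shallower Control library and in the shallower H2BE library. The samples held 2.47 and 1.57 CPM in Control, 5.25 and 4.59 CPM in BDNF, 3.24 and 1.78 CPM in H2BE, and 4.66 and 4.47 CPM in H2BE+BDNF. The samples with BDNF were all above those without it. The log2 fold change of 1.25 ± 0.30 under the control virus passed the test (adjusted p = 0.00446). The value of 0.80 ± 0.34 under the H2BE virus did not (adjusted p = 0.0968), and its 95% interval of 0.08 to 1.52 holds the value found under the control virus. It was 1.34 (adjusted p = 0.08) without H2BE replicate 2 and 0.49 (adjusted p = 0.424) without H2BE replicate 3.

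Etv1 (ENSMUSG00000004151), on the plus strand of chromosome 12 at 38779380-38870484, was at 16.8 and 15.5 CPM in Control, 14.1 and 17.9 CPM in BDNF, 16.4 and 24.6 CPM in H2BE, and 18.5 and 15.7 CPM in H2BE+BDNF. All groups overlapped, and the highest value came from 1 H2BE sample. The log2 fold change with BDNF was -0.08 (95% interval -0.44 to 0.29, adjusted p = 0.772) under the control virus and -0.22 (-0.62 to 0.18, adjusted p = 0.424) under the H2BE virus. A rise of the size seen for Etv5 lies outside both intervals. Markers of layer 5 neurons, the cells Etv1 marks, summed to 366 to 387 CPM in Control, 283 to 365 CPM in BDNF, 430 to 443 CPM in H2BE and 364 to 379 CPM in H2BE+BDNF. With BDNF 3 of the 6 fell under the control virus, Ldb2 (log2 fold change -0.72), Tcerg1l (-0.38) and Bcl11b (-0.35), and 0 rose. Crym (-0.30), Fezf2 (0.03) and Pcp4 (0.07) did not pass the test. Under the H2BE virus 2 of the 6 fell and 0 rose. Of all genes 14.6% fell under the control virus and 12.3% under the H2BE virus. In bulk RNA fewer cells of a type and less RNA per cell cannot be told apart, and the part of these cells in the Etv1 value was not tested.

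**Figure D2:**
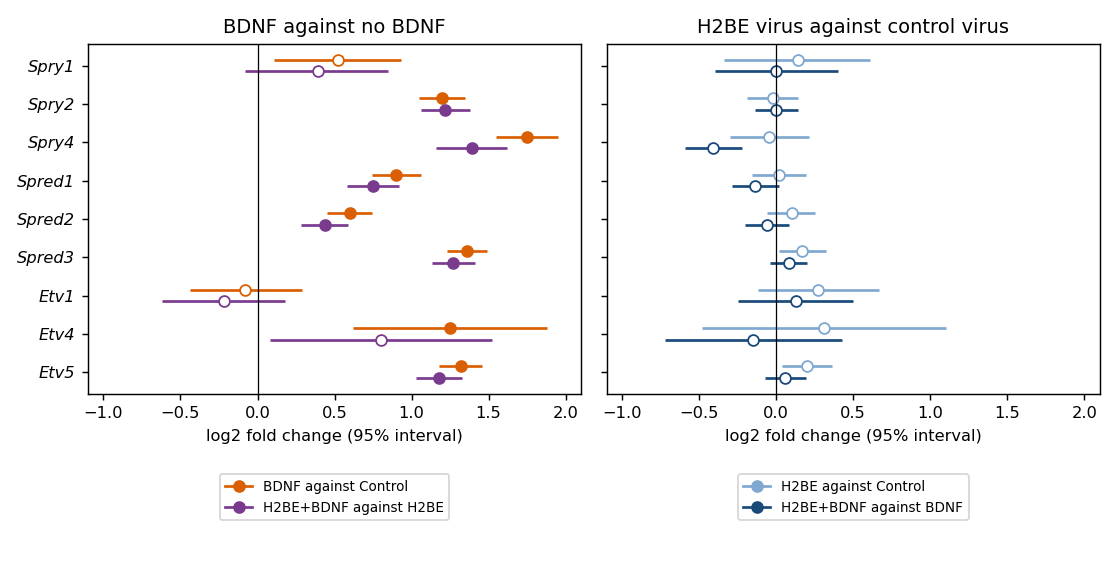
Log2 fold change of each gene (horizontal axis, bars are 95% intervals) with BDNF under each virus (left) and with H2BE virus without and with BDNF (right); filled points passed an adjusted p under 0.05 and open points did not. On the left 7 genes are filled under the control virus and 6 under the H2BE virus, and on the right all points are open.

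Spred3 and Etv5, on different chromosomes, had the most similar course of all pairs among the 9 genes. The measure was the Euclidean distance between log2 CPM over the 8 distinct libraries, each gene centred on its own mean, so that it compares changes and not levels. The distance between Spred3 and Etv5 was 0.106, and each was the nearest of 10697 candidate genes to the other. The next closest pair among the 9 was Spry2 with Etv5 at 0.267, and Spry4 with Etv1 were the farthest apart at 2.539. Outside the 9, the nearest genes were Oxr1 (0.098) and B2m (0.125) for Spry2, Clic4 (0.193) and Adamts1 (0.251) for Spry4, and Mbnl1 (0.245) and Grm7 (0.27) for Spry1. For the Spred genes they were Dll1 (0.124) and Nuak1 (0.135) for Spred1, Ptpra (0.055) and Sort1 (0.091) for Spred2, and Cpne7 (0.193) as the second nearest of Spred3. Etv1 was nearest to Ago4 (0.291) and P3h4 (0.3), Etv4 to Cdk2ap1 (0.536) and Cbln2 (0.549), and Etv5, after Spred3, to Ptprn (0.142). These distances are descriptions over the same 8 libraries, and those of Etv4, Spry1 and Etv1, the genes with the fewest counts, also hold more counting noise.

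The sequences upstream of the start sites are shown for the closest pair, Spred3 and Etv5, for Spry2 and, as a gene that did not pass the test, Etv1. Windows were read for 7 of the 9 genes, all but Spry4 and Etv4. These are 9 windows of 250 bases that end at the base before a RefSeq (GRCm38.p6) start. No window of Spry4 or Etv4 was read, so their absence says nothing about whether RefSeq gives them a start. The windows are printed 5′ to 3′ on the strand of the gene. Capitals mark a match on either strand to TGAATGNA, a form of the sequence bound by CIC, or to its part TGAATG. Other forms of the CIC sequence were not searched and are not marked. CIC is a repressor that ERK switches off and that is known to hold ETV genes down. The windows lie at chr7:29168648-29168897 (minus strand) for Spred3, chr16:22438369-22438618 (minus strand) for the second Etv5 start, chr14:105896820-105897069 (minus strand) for Spry2 and chr12:38779832-38780081 (plus strand) for the first Etv1 start. None of them overlaps an annotated exon of its gene, and those of Spred3, Etv5 and Etv1 lie inside the gene's span, downstream of its outermost start.
Spred3: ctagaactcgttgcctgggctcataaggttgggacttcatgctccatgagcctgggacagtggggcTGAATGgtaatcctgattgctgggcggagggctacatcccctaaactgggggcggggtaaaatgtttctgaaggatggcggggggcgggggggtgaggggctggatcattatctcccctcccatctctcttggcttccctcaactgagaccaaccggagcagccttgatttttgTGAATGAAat
Etv5: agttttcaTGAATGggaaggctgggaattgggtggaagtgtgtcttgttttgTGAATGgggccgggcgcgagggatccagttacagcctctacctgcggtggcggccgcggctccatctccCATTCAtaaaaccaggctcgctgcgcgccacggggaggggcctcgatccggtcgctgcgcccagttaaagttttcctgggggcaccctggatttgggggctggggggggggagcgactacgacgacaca
Spry2: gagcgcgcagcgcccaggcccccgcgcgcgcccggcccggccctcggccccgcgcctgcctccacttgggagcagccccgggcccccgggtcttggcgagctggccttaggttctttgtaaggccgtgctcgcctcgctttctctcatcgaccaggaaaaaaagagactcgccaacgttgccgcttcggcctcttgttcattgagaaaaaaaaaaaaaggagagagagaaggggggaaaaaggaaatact
Etv1: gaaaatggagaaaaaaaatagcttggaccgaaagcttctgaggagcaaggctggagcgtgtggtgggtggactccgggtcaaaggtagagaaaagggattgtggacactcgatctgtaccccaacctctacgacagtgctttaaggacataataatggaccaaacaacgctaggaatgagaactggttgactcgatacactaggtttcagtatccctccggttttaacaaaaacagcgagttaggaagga

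The Spred3 window holds TGAATG with its first base at -184 and at -10 from the start, the second of them within TGAATGAA. The Etv5 window holds TGAATG at -242 and -198 and its reverse complement CATTCA at -129, and no TGAATGNA. Among all 32851 RefSeq windows, 10.9% hold TGAATG on either strand, 3.2% hold TGAATGNA and 0.131% hold 3 or more TGAATG. The shorter form TGAATG, which lies inside TGAATGNA, was added after these windows had been read. A count of 3 or more is what the Etv5 window itself holds, so its share is a description and not a test. Also searched on both strands were the cAMP response element TGACGTCA (in 1.55% of windows) and its part TGACG (17.8%), the ETS core CCGGAAG (6.91%), the AP-1 element TGANTCA (6.75%) and the EGR core GCGTGGG (4.3%). Of these, the 9 windows hold only TGACG, once, in Spred2 at -51. The Spry1, Spry2 and Spred1 windows and both Etv1 windows hold none of the motifs searched. Nor does the first Etv5 window (chr16:22439571-22439820), at the more upstream RefSeq start of that gene. Other forms of the CIC sequence were not searched, so windows without a match, that of Spry2 included, may still hold one of them. A match is a run of letters and not a measured site, and the absence of a match says only that the letters are not in this window. RNA of Cic itself was at 265 ± 11 CPM in Control and 293 ± 42 CPM in BDNF (SD, n = 2; log2 fold change 0.10, adjusted p = 0.301). Under the H2BE virus Cic fell with BDNF from 312 ± 2.9 to 269 ± 16 CPM (-0.21, adjusted p = 0.0434). It was named for this motif after its values were seen.

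Per length of exon, Spry2 was the most abundant of the 9 in every group. In Control it stood at 30.2 ± 0.78 CPM per kilobase (SD, n = 2), followed by Spred2 at 17.0 ± 0.73, Etv5 at 12.2 ± 0.29, Spred1 at 11.9 ± 0.57, Spred3 at 11.5 ± 0.36, Spry4 at 5.64 ± 0.27, Spry1 at 2.72 ± 0.11, Etv1 at 1.22 ± 0.071 and Etv4 at 0.65 ± 0.20 CPM per kilobase. Samples of neighbours in this order overlapped for Etv5 with Spred1 and for Spred1 with Spred3, and no others did. With BDNF the order was Spry2 at 68.7 ± 4.1, Etv5 at 30.8 ± 0.22, Spred3 at 29.5 ± 0.73, Spred2 at 26.4 ± 1.2, Spred1 at 22.7 ± 2.1, Spry4 at 19.1 ± 2.0, Spry1 at 3.93 ± 1.0, Etv4 at 1.59 ± 0.15 and Etv1 at 1.2 ± 0.20 CPM per kilobase, with no neighbours overlapping. On this scale Etv5 and Spred3 thus passed Spred2, and Etv4 passed Etv1. The order depends on the length used, as the longest transcript of Etv1 has 6576 bases against 13296 bases of exon. For Etv4 these are 2395 and 3104 bases, and for Spred3 4056 and 6218 bases. Whether the order holds by longest transcript was not tested.

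Under the H2BE virus the order of levels per kilobase was the same as in Control except that Spred3 (12.8 ± 0.044) stood above Spred1 (12.2 ± 0.59). With H2BE and BDNF it was the same as in BDNF, from Spry2 at 68.7 ± 1.1 to Etv1 at 1.29 ± 0.15 CPM per kilobase. Among 13409 tested genes with a known length, Spry2 stood at percentile 87.2 in Control and 95.5 in BDNF, Spry4 at 48.8 and 78.2, and Etv4 at 10.9 and 23.4. These percentiles use replicates 1 and 2 without the third. The exon length covers all annotated exons of a gene, 13.3 kilobases for Etv1 and 2.09 for Spry2, so a gene with many unused exons is understated on this scale.

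**Figure D3:**
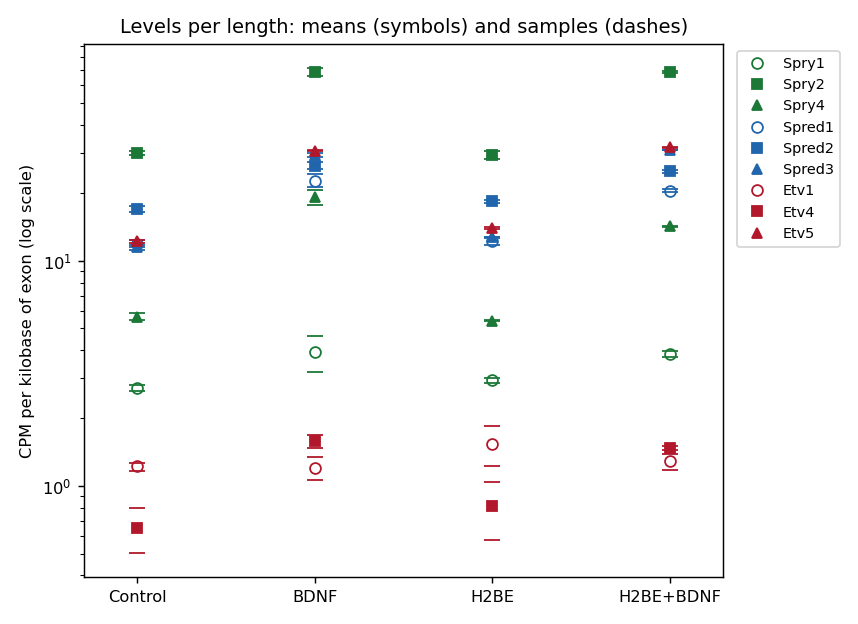
Level per kilobase of exon (vertical axis, log scale) of the 9 genes in the 4 groups; symbols are means, dashes the 2 samples, green Sprouty, blue Spred and red ETV genes. Spry2 stands at the top in every group, at 30.2 in Control and 68.7 with BDNF, and Etv4 and Etv1 stand at the bottom.

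In unstimulated neurons no gene of the 9 passed the test for the H2BE virus. The log2 fold changes of H2BE against Control ran from -0.05 (Spry4) to 0.31 (Etv4), with a median of 0.138 against 0.00 for all genes. edgeR called 0 of 9 where 2.13% of all genes were called, and DESeq2 called 0 while giving no adjusted p for 3. At an unadjusted p under 0.05 there were 2, Spred3 with 0.17 (95% interval 0.02 to 0.32, adjusted p = 0.204) and Etv5 with 0.20 (0.04 to 0.36, adjusted p = 0.167). In both of these genes the H2BE samples lay above the Control samples. For Spry2 the interval ran from -0.19 to 0.14 and for Spred1 from -0.16 to 0.19, and for the low gene Etv4 from -0.48 to 1.10.

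Among stimulated neurons, Spry4 had the largest difference between the viruses. H2BE+BDNF against BDNF gave 0 of 9 calls by edgeR, where 0.0223% of all genes (3 genes) were called, and 0 by DESeq2, which gave no adjusted p for 4 of the 9, Spry4 included. At an unadjusted p under 0.05 there was 1, Spry4, at -0.41 (SE 0.086, 95% interval -0.59 to -0.22, adjusted p = 0.13), that is 67.6 ± 0.48 CPM with H2BE and BDNF and 91.0 ± 9.6 CPM with BDNF alone (SD, n = 2). The value was -0.52 (adjusted p = 0.00042) without BDNF replicate 1 and -0.28 (adjusted p = 0.4) without BDNF replicate 2. With no filter on low counts it was -0.42 (adjusted p = 0.00213), and 5 of 17 alternative settings in all called Spry4. Without the filter other adjusted p-values of edgeR moved too, in both directions. That of Spry2 with BDNF under the control virus went from 4.19e-09 to 8.34e-48, and that of Etv5 in H2BE against Control from 0.167 to 0.412. Another of the 5 settings counts all 10 libraries as replicates. The other 8 ran from -0.15 (Etv4) to 0.13 (Etv1), and Spry2 was at 0.00 with an interval of -0.14 to 0.14.

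The difference between the BDNF responses, taken as the log2 response under the H2BE virus minus that under the control virus, passed the test for 0 of 9 genes by edgeR and 0 by DESeq2, which gave no adjusted p for 4, against 1.15% of all genes by edgeR. At an unadjusted p under 0.05 there was again 1, Spry4, at -0.36 (95% interval -0.67 to -0.04, adjusted p = 0.237). Without BDNF replicate 1 it was -0.48 (adjusted p = 0.0348) and without BDNF replicate 2 -0.24 (adjusted p = 0.407). The difference was below 0 in 8 of the 9, all but Spry2 (0.02, interval -0.19 to 0.24), as it was in 51.1% of all genes, and its median was -0.147 against -0.008 over all genes. The 9 genes share the same libraries, so their signs are not independent outcomes. Most of the 9 rose under the control virus, and the share below 0 among all genes that rose there was not computed. The differences use the same samples as the comparisons above and add no separate evidence on Spry4. The widest interval was that of Etv4, -1.43 to 0.53.

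Other parts of the pathway are given by lists written from general knowledge. Their counts can be set beside the calls with BDNF among all tested genes. Rises made up 16.8% of tested genes (control virus) and 13.4% (H2BE virus). Falls made up 14.6% (control virus) and 12.3% (H2BE virus). Whether any pathway list differs from these shares was not tested. Of 16 tested growth factor receptors, 4 rose and 3 fell with BDNF under the control virus (median log2 fold change 0.09). Fgfr1, a receptor whose signalling Sprouty proteins restrain, rose from 32.1 ± 2.0 to 81.3 ± 1.7 CPM (SD, n = 2), and Kit, the receptor Spred proteins were found with, rose from 138 ± 9.7 to 256 ± 35 CPM. Met, the hepatocyte growth factor receptor, fell from 93.7 ± 9.5 to 57.5 ± 1.7 CPM. Ntrk2, which encodes TrkB and was added here as the receptor of BDNF after its values were seen, was at 622 ± 25 CPM in Control and 518 ± 29 CPM in BDNF, a fall that passed the test (log2 fold change -0.30, adjusted p = 0.000395). With the H2BE virus Ntrk2 fell from 679 ± 3.6 to 437 ± 4.3 CPM (-0.64, adjusted p = 3.88e-07). The difference of its BDNF responses also passed the test (-0.34, adjusted p = 0.0444). Under the H2BE virus 2 receptors rose and 4 fell.

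Below the receptors, 7 of 21 adaptors and exchange factors rose and 4 fell with BDNF under the control virus (median 0.16), and 3 rose and 3 fell under the H2BE virus (0.04). Those with the smallest p under the control virus were the Shc adaptors Shc3 (1.03) and Shc4 (1.93), and the Ras exchange factor Rasgrp1 (0.53). Under the H2BE virus Shc3 was at 0.37, and the difference of its responses passed the test (-0.65, adjusted p = 0.0178). Of 16 Ras and Ras-inactivating genes 6 rose and 2 fell under the control virus (median 0.02), among them the Ras-inactivating Rasal2 (0.81), Nf1 (0.47) and Rasa1 (0.42), and 6 rose and 4 fell under the H2BE virus (0.06). There Nf1 was at 0.09 (adjusted p = 0.373), and the difference of its responses, -0.38, had an adjusted p of 0.0521. The core kinases and their scaffolds had 2 rises and 4 falls among 13 under the control virus (median -0.12) and 2 and 6 under the H2BE virus (-0.09). Under the control virus Mapk3, which encodes ERK1, had a log2 fold change of -0.40 and Araf of -0.33, while Braf was at 0.39. Of 7 kinases that ERK activates, 3 rose and 2 fell under the control virus and 2 and 1 under the H2BE virus (medians 0.01 and -0.14), with Rps6ka5 at -1.37, Rps6ka2 at 0.61 and Rps6ka3 at 0.34 under the control virus.

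Of the 14 tested other feedback genes of the pathway, 9 rose with BDNF and 0 fell under each virus, with medians of 0.87 and 0.84, against 1.2 and 0.80 for the Sprouty, Spred and ETV genes and -0.01 and 0.00 over all genes. Dusp6, an ERK phosphatase, went from 37.4 ± 2.1 to 109 ± 14 CPM. Dusp4, a nuclear ERK phosphatase, went from 65.4 ± 3.3 to 140 ± 11 CPM, and Lrig1, a negative regulator of receptors, from 18.1 ± 1.9 to 61.4 ± 6.5 CPM. A list of 6 transcripts often used as a readout of ERK activity, which shares Dusp6, Dusp4 and Phlda1 with the list before it, had 5 rises and 0 falls under the control virus (median 1.05) and 4 and 0 under the H2BE virus (0.98), with Epha2 from 0.603 ± 0.36 to 4.20 ± 0.32 CPM.

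**Figure D4:**
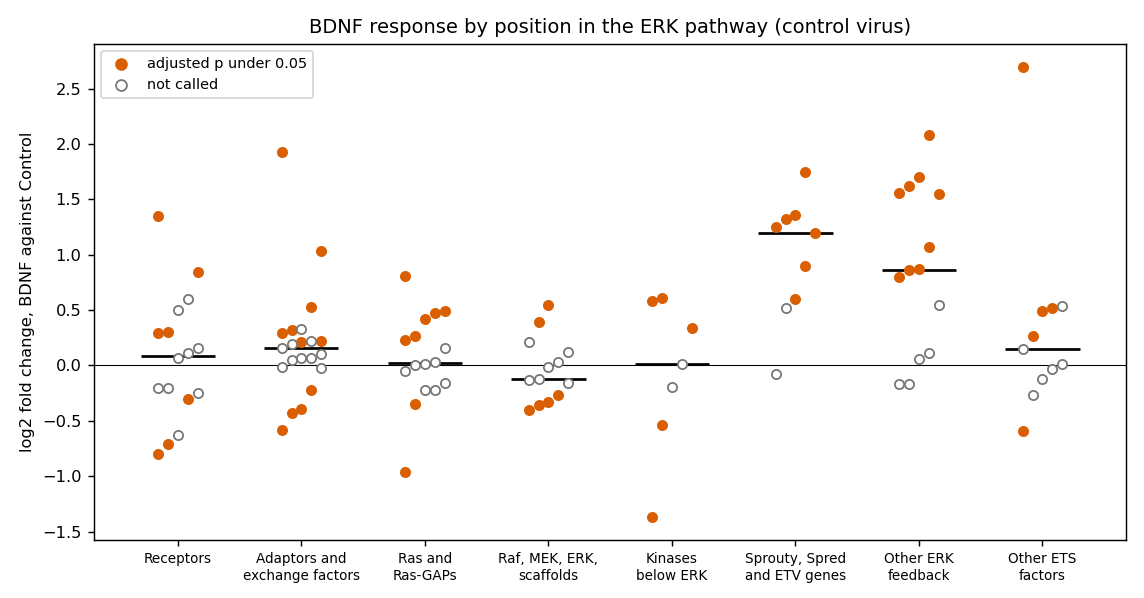
Log2 fold change with BDNF under the control virus (vertical axis) for each tested gene, by its place in the ERK pathway; filled points passed an adjusted p under 0.05, open points did not, and black lines are medians. The medians are 1.2 for the Sprouty, Spred and ETV genes and 0.87 for the other feedback genes, and between -0.12 and 0.16 for the remaining lists.

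Of 14 genes for proteins that bind Sprouty or Spred, 6 rose and 1 fell with BDNF under the control virus (median 0.09). Cbl, the ubiquitin ligase bound by SPRY2, rose by 0.58 on the log2 scale, Nf1, the neurofibromin gene already given above, by 0.47, and Cav1, a membrane protein, had a log2 fold change of -2.08 at 3.34 ± 0.043 CPM in Control. Under the H2BE virus 2 of the 14 rose and 1 fell. Among 11 tested ETS factors other than the PEA3 group, 4 rose and 1 fell under the control virus (median 0.15), with Elk3 from 1.45 ± 0.41 to 9.08 ± 1.1 CPM, Elf2 at 0.52 and Etv3 at 0.49. Of 6 genes known to regulate ETV proteins or genes, Cop1, a ubiquitin ligase for ETV proteins, rose by 0.48 and the other 5 did not pass the test under the control virus.

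Some markers of other cells also moved with BDNF. For these lists the shares over all genes are 16.8% up and 14.6% down under the control virus. Under the H2BE virus they are 13.4% up and 12.3% down. Progenitor markers summed to 164 to 173 CPM in Control and 281 to 297 CPM in BDNF, and to 141 to 148 CPM in H2BE and 281 to 282 CPM in H2BE+BDNF, with 5 of 10 rising and 1 falling under the control virus. Vim, also expressed by many other cells, went from 63.6 ± 5.1 to 174 ± 7.0 CPM, Nes had a log2 fold change of 0.57, and Eomes, which marks intermediate progenitors, one of -0.99. Oligodendrocyte lineage markers summed to 54.6 to 58.2 CPM in Control and 88.0 to 98.6 CPM in BDNF. Of 8 tested 1 rose, Mbp, from 19.9 ± 0.0058 to 51.9 ± 1.0 CPM, while Sox10 was at 0 CPM in both of these groups. Microglial markers summed to 11.7 to 12 and 24.7 to 25.2 CPM. Of 4 tested 1 rose, Cd68, from 4.86 ± 0.47 to 17.8 ± 0.96 CPM, and Tmem119 was at 0 CPM in both groups.

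Astrocyte markers summed to 388 to 405 CPM in Control and 453 to 489 CPM in BDNF, with 2 of 9 rising, Slc1a2 (0.22) and Gja1 (0.87), and to 476 CPM in H2BE and 459 to 465 CPM in H2BE+BDNF, with 0 rising and 1 falling. Endothelial, mural and fibroblast markers summed to 64.0 to 75.8 and 52.4 to 61.9 CPM in Control and BDNF, with 1 of 7 falling, Dcn (-1.45). Among 10 neuron markers 3 rose and 4 fell, with Map2 at 0.55, Slc17a6 at 1.15 and Neurod6 at -0.77. The part of such cells in the changes of the Sprouty, Spred and ETV genes was not tested.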

How the data were processed

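PolyA RNA of 10 mouse cortical neuron libraries was compared in 4 groups. The authors deposited raw counts for 48526 Ensembl genes, and a normalized table of signal values, in which counts are divided by 1 size factor per library. The submitters' processing notes name mm10, SAMtools, DESeq2 and deepTools without versions, while for the aligner, counter and strand setting no source used here gives a name. The normalized table was used for symbols and to choose the 9 genes. Raw counts of 8 distinct libraries were tested with edgeR 4.0.16 (limma 3.58.1, R 4.3.3): filterByExpr (minimum count 10, total 15; 13452 genes kept), TMM, 1 mean per group, quasi-likelihood F test, Benjamini-Hochberg adjustment within each of 5 comparisons, threshold 0.05. Groups share 1 estimate of the spread. Intervals (95%) come from the fitted log2 fold change and its SE. DESeq2 1.42.0 was an alternative. The fit was also run on simulated data, with changes set in few genes of the BDNF group and a spread set by level alone. Those settings differ from the data, so the run gives no error rate for the calls here. Log2 CPM for distances used a prior count of 2, and candidates needed a symbol and a mean of at least 5 CPM.

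The 9 genes and the lists were chosen with earlier results of these data known. All 9 are named, and of other lists up to 3 called genes with the smallest p in BDNF against Control, besides H2bc21. Crym, Fezf2 and Pcp4 were named after their values were seen. For distances the 2 nearest genes are named. Exon lengths and positions are from GENCODE M21. Total counts of 5058074 to 14142545 set the precision: 9 counts of Etv4 in a library leave a wide interval.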

Additional observations from a re-analysis of the deposited data

How the results depend on the processing

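With 2 distinct samples per group, the calls for Spry2, Spry4, Spred1, Spred2, Spred3 and Etv5 with BDNF held in all 18 alternatives under both viruses, and that for Etv4 in all 18 under the control virus (highest adjusted p = 0.0417, DESeq2). The count of genes called was 7 to 8 in BDNF against Control, where the eighth was Spry1, and 6 throughout in H2BE+BDNF against H2BE. Counting all 10 libraries as replicates called 2 genes in H2BE against Control (Spred3, adjusted p = 0.0483, and Etv5, 0.0274). In H2BE+BDNF against BDNF 1 gene, Spry4, was called with no filter on low counts (adjusted p = 0.00213), with all 10 libraries (0.0492), with a replicate block (0.0268) and with a replicate block in which Control 1 and BDNF 1 are numbered 3 (0.0469), and leaving out 1 library gave 0 to 1. For the difference of responses leaving out 1 library also gave 0 to 1. Why these settings differ was not tested.

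Same-numbered libraries gave no positive correlation of their deviations from the group mean over 10716 genes. The values were -0.123 (Control 2 with BDNF 2), -0.337 (H2BE 2 with H2BE+BDNF 2), -0.254 (Control 2 with H2BE 2) and -0.11 (BDNF 2 with H2BE+BDNF 2). The 2 deviations in a group mirror each other, and replicates differ in depth. These values therefore cannot tell whether same-numbered samples shared a preparation. The replicate block called 7, 6, 0, 1 and 0 of the 9 genes in the 5 comparisons in the order of the report, and a crossed block, chosen after seeing the data, called 8, 6, 0, 0 and 0.

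Of 790 alternative values 735 kept direction and call, 15 newly passed the threshold, and 40 changed sign, all of them uncalled. The sign changes as log2 values were, for H2BE against Control, Spry1 -0.028 and Spred1 -0.014 (replicate block) and Spry2 0.079 (length and GC correction). For H2BE+BDNF against BDNF, Spry1 was at -0.009 with no filter, -0.073 with the third replicates in place of the first, -0.099 with the replicate block and -0.009 with the length and GC correction, and Spry2 at 0.017 with all 10 libraries, 0.011 with the third replicates and 0.006 with only the 2 groups in the fit. There the replicate block also gave -0.008 for Etv1 and 0.216 for Etv4. Etv1 in BDNF against Control was at 0.019 with the third replicates, and the difference of responses of Spry2 at -0.11 with the length and GC correction. The cause was not tested.

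Leaving out 1 library at a time gave ranges across 0 of -0.273 to 0.09 for Etv1 with BDNF under the control virus and -0.523 to 0.066 under the H2BE virus. For H2BE against Control they were -0.076 to 0.042 (Spry2), -0.032 to 0.082 (Spred1), -0.016 to 0.574 (Etv1) and -0.235 to 0.732 (Etv4). For H2BE+BDNF against BDNF they were -0.258 to 0.326 (Spry1), -0.051 to 0.045 (Spry2), -0.044 to 0.321 (Etv1) and -0.291 to 0.004 (Etv4). For the difference of responses they were -0.395 to 0.189 (Spry1), -0.039 to 0.074 (Spry2), -0.443 to 0.141 (Etv1) and -0.873 to 0.094 (Etv4). Depth limits Etv4 most.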
